A study of Drosophila melanogaster with 3 samples.

Results

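The 10 genes described are those of the Brahma (SWI/SNF) chromatin remodelling complex of Drosophila melanogaster, namely osa, brm, mor, Snr1, Bap60, Bap111, Bap55, Bap170, polybromo and e(y)3. They were taken by name from a list of complex subunits, and the rule used no measured value. The choice of this list was nonetheless made with earlier results of these data known. All 10 were found among the 13945 protein-coding genes annotated on the chromosome arms. The data were anti-GFP ChIP-seq peak lists (chromatin immunoprecipitation followed by sequencing) from whole embryos aged 0 to 24 h, in 3 biological replicates of 1 group. The embryos came from a transgenic fly line in which the protein of CG14050 carries an eGFP tag. Every replicate carried the tagged protein, no untagged or input library was analysed here, and the labels do not name the promoter that drives the transgene. With 1 group no condition could be compared, so the members were set beside all protein-coding genes and no test was run.

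The Brahma complex uses the energy of ATP hydrolysis to slide or evict nucleosomes. It exists in a BAP form, which contains Osa, and in a PBAP form, which contains Polybromo, Bap170 and e(y)3 (also known as SAYP), around a core that both share. Several of its genes, among them brm, osa, mor and Snr1, belong to the trithorax group, whose products keep homeotic genes active in the embryo.

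Sequence around the summits is shown for the regions that carry the result at brm, osa and mor, with the gap beside the summit at Bap60. The letters are the RefSeq sequence of the Release 6 (dm6) genome on the plus strand. The brm window is chr3L:15982916-15983116, between brm and its divergent neighbour Arl1. The osa windows are chr3R:17704322-17704522 and chr3R:17700491-17700691, both inside the osa gene, of which the first is the one nearer to the osa start. The mor windows are chr3R:15973024-15973224, which is the proximal one, and chr3R:15974371-15974571, which is the distal one. For Bap60 only the 95 bp gap between Bap60 and CG12096, chrX:13159509-13159603, is shown, and the summit at 13159620 lies just outside it. Capitals mark matches on either strand to the 8 motifs searched, which are given with the sequence results.
brm: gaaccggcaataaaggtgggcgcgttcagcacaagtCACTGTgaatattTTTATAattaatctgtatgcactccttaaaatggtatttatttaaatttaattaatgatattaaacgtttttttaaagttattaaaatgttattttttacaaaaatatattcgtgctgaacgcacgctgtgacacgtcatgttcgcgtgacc
osa proximal: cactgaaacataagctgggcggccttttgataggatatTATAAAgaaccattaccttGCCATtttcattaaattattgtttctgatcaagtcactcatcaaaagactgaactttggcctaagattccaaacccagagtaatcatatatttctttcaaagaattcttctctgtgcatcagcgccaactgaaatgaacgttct
osa distal: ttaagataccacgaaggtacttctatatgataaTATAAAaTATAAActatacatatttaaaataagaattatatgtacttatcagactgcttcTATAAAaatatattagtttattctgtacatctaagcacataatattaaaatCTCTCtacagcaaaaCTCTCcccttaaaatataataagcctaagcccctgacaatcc
mor proximal: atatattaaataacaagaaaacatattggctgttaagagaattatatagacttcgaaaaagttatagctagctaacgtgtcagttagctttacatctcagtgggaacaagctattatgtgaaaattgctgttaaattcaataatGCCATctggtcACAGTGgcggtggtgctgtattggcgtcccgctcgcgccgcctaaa
mor distal: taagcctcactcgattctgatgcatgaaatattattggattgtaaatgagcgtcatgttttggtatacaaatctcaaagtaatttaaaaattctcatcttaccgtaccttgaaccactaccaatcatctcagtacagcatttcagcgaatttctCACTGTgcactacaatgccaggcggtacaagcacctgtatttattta
Bap60: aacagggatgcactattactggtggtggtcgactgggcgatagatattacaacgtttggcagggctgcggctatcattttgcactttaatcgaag

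The authors made 4 peak lists across replicates, 1 of which carries the name conservative and is the main one used here. It held 3515 peaks, of which 3502 lay on the chromosome arms, drawn from 63709 ranked regions. The pair of lists compared for these regions shared records with replicates 2 and 3, and 0 with replicate 1. The replicate lists held 2155, 2433 and 2282 peaks (mean 2290 ± 139, SD, n = 3) from 49504, 48710 and 46992 ranked regions. Signal is the value that the authors deposited for each peak, and it was compared only within a list because no source used here gives its scale. Each ranked region also has an irreproducible discovery rate (IDR), the estimated share of regions ranked this high that would not recur between the lists compared, and thresholded lists kept an IDR of at most 0.01. Each such list nonetheless lacked a few ranked regions that passed this rate, 101 in the conservative list, and a pair of these lay at mor.

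At 4 of the 10 genes, osa, brm, Bap60 and Bap55, a conservative peak had its summit in the gene or within 2 kb of it, and these genes had 5 such peaks. The same was true of 27.8% of all protein-coding genes. A thresholded peak was present in all 3 replicate lists at 2 of the 10 genes, osa and brm, against 15.1% of all protein-coding genes. A conservative summit lay within 500 bp of a transcription start site (TSS) at 2 of the 10, brm and Bap60, against 14.3% of all protein-coding genes. With 10 genes, 1 gene more or less moves a share by 10 percentage points, so these counts were close to the background and are no result about the complex. The embryos were taken whole, so occupancy in few cells and weak occupancy in many cells cannot be told apart at any of these sites.

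Taken replicate by replicate, replicate 1 had peaks at 2 members, osa and brm, against 19.9% of all protein-coding genes. Replicate 2 had peaks at 3, the additional gene being Bap60, against 22.3% of all protein-coding genes. Replicate 3 also had peaks at 3, the additional gene being Bap55, against 21.5% of all protein-coding genes. The peaks at osa and brm therefore recurred in each replicate and those at Bap60 and Bap55 in 1 replicate each. Of the 5 conservative peaks at the members, 3 overlapped a peak in all 3 replicate lists and 2 overlapped a peak in 1 list. Among all 3502 conservative peaks, 40.6% overlapped a peak in all 3 lists, 19.7% in 2 lists, 21.0% in 1 list and 18.6% in none. When overlap with a peak of both other replicates was required, with any 1 left out, 2 of the 10 genes, osa and brm, had a conservative peak. The share of all protein-coding genes was 15.8% to 17.3%. The conservative list was not remade without that replicate, and the main count asks for no overlap. The lower count thus follows from the overlaps just given and does not show the effect of leaving out a replicate. Counting only summits inside the gene left osa, 1 of the 10, against 9.67% of all protein-coding genes.

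The members were also counted by role. The BAP signature gene osa had a conservative peak (1 of 1), as did 3 of the 6 core genes (brm, Bap60 and Bap55) and 0 of the 3 PBAP signature genes. The share of all protein-coding genes under this rule was 27.8%. These subsets are too small to be told apart by count, from each other or from that share. The spread in strength was wide among the 4 genes with a peak. The rank of the strongest one was 46 at osa, 64 at brm, 2112 at Bap60 and 2619 at Bap55, of 3515. Their median of 1088 was near none of these ranks. The median over the 3880 protein-coding genes with a peak was 1307, and 4 such values do not set the members apart from it.

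**Figure D1:**
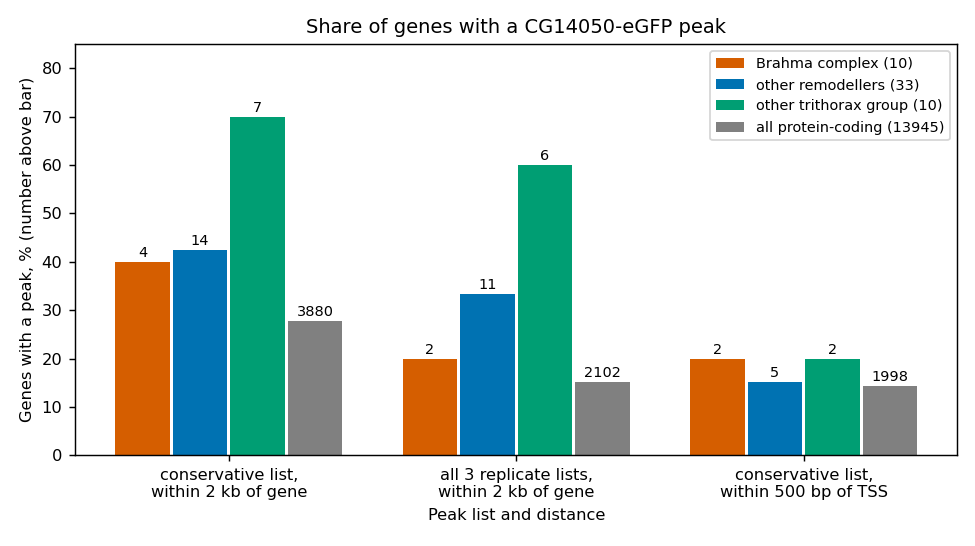
Share of genes, in %, with a CG14050-eGFP peak by 3 rules, for the 10 Brahma complex genes (left bar of each group), 33 other chromatin remodeller genes, 10 other trithorax group genes and all 13945 protein-coding genes, with the number of genes above each bar. The Brahma complex bars stand at 4, 2 and 2 genes of 10, and the bars over all protein-coding genes stand for 3880, 2102 and 1998 genes.

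osa encodes the ARID-domain subunit that defines the BAP form. The gene lies on chr3R:17687818-17718350, minus strand, and spans 30.5 kb. It had 2 conservative peaks, both deep inside the gene. The one nearer to the osa TSS had its summit at 17704422, 13928 bp downstream of that TSS, with a signal of 923, which was rank 46 of 3515 (top 1.31%). This summit fell in an exon of the noncoding RNA gene lncRNA:CR46035, 727 bp from the TSS of that gene, which lies within an intron of osa. The distal one had its summit at 17700591, 17759 bp downstream of the osa TSS and 3831 bp from the other summit, with a signal of 592 (rank 129). It lay in an osa intron, 150 bp upstream of the TSS of another noncoding RNA gene, lncRNA:CR46036. Neither summit was near a protein-coding TSS: the nearest to the proximal one was that of osa itself, and the nearest to the distal one was that of CG31249, 13520 bp away.

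Both osa peaks recurred in every replicate at nearly the same position. The proximal peak had signals of 202, 356 and 365 in replicates 1, 2 and 3, at ranks 98, 36 and 33 of the replicate lists, with summits within 11 bp of each other. The distal peak had signals of 183, 207 and 216, at ranks 125, 129 and 126, with summits within 33 bp. The proximal peak was the stronger of the pair in each replicate, by 1.11, 1.72 and 1.69 times, and by 1.56 times in the conservative list. The size of that excess varied, since in replicate 1 the pair was nearly equal. osa is the longest of the 10 genes. Of 653 protein-coding genes at least as long as osa, 53.4% had a conservative peak by the same rule, against 27.8% of all protein-coding genes. The number of peaks per gene was not compared with length.

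brm encodes the ATPase of the complex, the Drosophila homologue of yeast Swi2/Snf2. The gene lies on chr3L:15970082-15982869, minus strand. Its conservative peak, 232 bp wide, had its summit at 15983016, 147 bp upstream of the brm TSS, with a signal of 802 (rank 64 of 3515, top 1.82%). Arl1, which encodes a small GTPase, starts on the opposite strand at 15983135, so the summit lay 119 bp upstream of the Arl1 TSS, which was the nearer one. The gap is shared by both promoters, and the position does not say to which gene the peak belongs. PolD1 and CG17027 also lay within 2 kb.

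The brm peak had signals of 217, 312 and 271 in replicates 1, 2 and 3, at ranks 82, 51 and 76 of the replicate lists. It was the most precisely placed of the members' peaks, with the 3 replicate summits within 2 bp. In replicate 1 it was stronger than the proximal osa peak, whose signal was 0.931 times that of brm, and in replicates 2 and 3 it was weaker, the osa signal being 1.14 and 1.35 times that of brm. The order of these 2 strongest peaks of the complex was therefore not constant over replicates. The mean rank among all ranked regions of a replicate was 73.7 ± 17.2 for brm, 58.7 ± 38.4 for the proximal osa peak and 132 ± 2.0 for the distal osa peak (SD, n = 3), so brm and proximal osa did not differ beyond their spread.

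**Figure D2:**
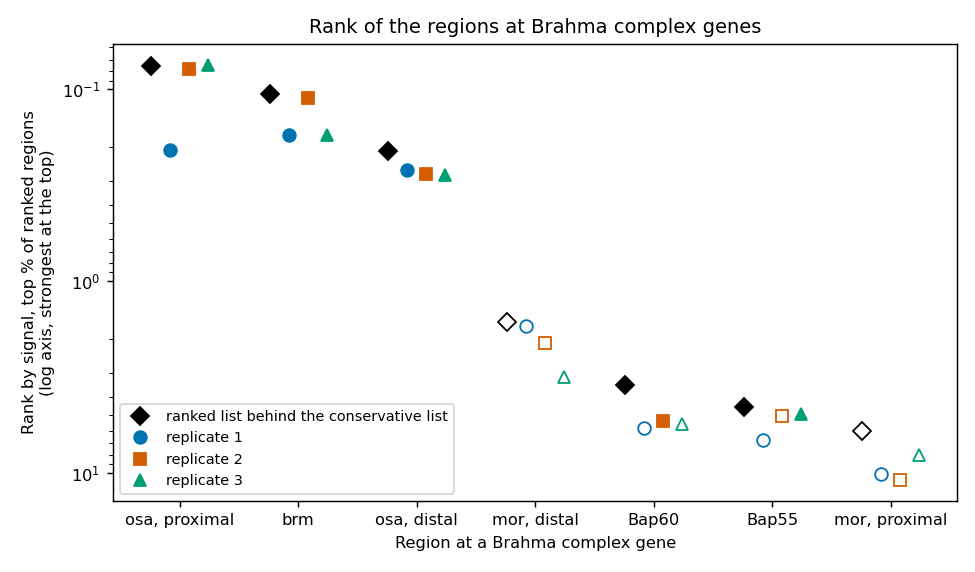
Position of the 7 regions at Brahma complex genes that pass the IDR, as the top % of ranked regions by signal on a log axis with the strongest at the top, in the ranked list behind the conservative list (diamonds) and in replicates 1 (circles), 2 (squares) and 3 (triangles). Filled markers are regions in the matching thresholded list and open markers are regions that are not: the osa and brm regions sit at the top with filled markers in all 4 lists, and the mor regions have open markers in all 4.

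Bap60 encodes a core subunit homologous to the mammalian BAF60 proteins. The gene lies on chrX:13157445-13159508, minus strand, head to head with CG12096. Its conservative peak had its summit at 13159620, 112 bp upstream of the Bap60 TSS and 16 bp inside the 5′ UTR of CG12096, with a signal of 116 (rank 2112 of 3515, top 60.1%). This was below the list's median signal of 134. In the conservative list the brm signal was 6.91 times that of Bap60.

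The Bap60 region had signals of 33.2, 36.9 and 39.6 in replicates 1, 2 and 3, with IDRs of 0.0502, 0.0051 and 0.0106. It thus passed in replicate 2 alone, at rank 2245 of 2433, and missed the limit in replicate 3 by a small margin. Its place among ranked regions was steady all the same, at a mean rank of 2688 ± 166 (SD, n = 3), with summits within 24 bp.

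Bap55 encodes an actin-related protein of the core. The gene lies on chr2R:17429353-17430963, minus strand, and its peak was beyond the 3′ end of the gene. The summit at 17427767 was 3196 bp downstream of the Bap55 TSS and 28 bp upstream of the TSS of Mtap, with a signal of 97.6 (rank 2619 of 3515, top 74.5%). CG6550 lay within 2 kb too. The summit was thus next to the Mtap start, and the 2 kb rule counts it for Bap55 as well.

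Signals at the Bap55 region were 30.7, 38.3 and 42.5 in replicates 1, 2 and 3, with IDRs of 0.357, 0.0199 and 0.00203. It passed in replicate 3 alone, at rank 2075 of 2282. The replicate summits were spread over 171 bp, the widest of the 7 regions, and the mean rank among ranked regions was 2696 ± 551 (SD, n = 3). Bap60 and Bap55 did not differ in mean rank beyond this spread, and both lay far below brm and osa in each replicate.

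mor encodes a core scaffold subunit, homologous to mammalian BAF155 and BAF170. The gene lies on chr3R:15968134-15972913, minus strand, next to Hel89B, which starts on the opposite strand. No thresholded list had a peak within 2 kb of mor, but the ranked lists had regions there that passed the IDR. Counting ranked regions that pass whether or not a thresholded list holds them, 5 of the 10 members had one, the additional gene being mor, against 28.2% of all protein-coding genes.

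The distal mor region had its summit at 15974471, 1558 bp upstream of the mor TSS and in an intron of Hel89B, 1173 bp from the TSS of that gene. Its signal of 194 was rank 1042 of the 63709 ranked regions behind the conservative list, stronger than the Bap60 and Bap55 peaks of that list, and its IDR was 2.01e-05. In replicates 1, 2 and 3 its signals were 68.7, 70.0 and 57.7, with IDRs of 4.65e-05, 0.00014 and 0.000878, so it passed in each replicate. The proximal mor region had its summit at 15973124, 211 bp upstream of the mor TSS and 174 bp upstream of the Hel89B TSS. Its signal was 79.6 (rank 3821, IDR 0.00956), and its replicate signals were 25.3, 24.3 and 32.2 with IDRs of 0.722, 0.748 and 0.0664, so it passed in no replicate. Among the other across-replicate ranked lists, the IDR of the proximal region was 0.0176 in the list of 3219 peaks, where it did not pass. It was 0.01 in that of 3247 and 0.00371 in that of 3534. These lists compared different pairs, which shared records with replicates 1 and 2, with replicates 1 and 3, and with no replicate, in that order. The distal region was the stronger in each replicate, by 2.71, 2.88 and 1.79 times.

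Of the 93 regions on the chromosome arms that passed the IDR and were absent from the conservative list, 59 lay on 3R, where mor is. The share of all conservative peaks that lie on 3R is not given here, so this count has no background. The deposited descriptions name, for each thresholded list, 1 source file more than for its ranked list. Whether that file bears on the absence of the mor regions was not tested.

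**Figure D3:**
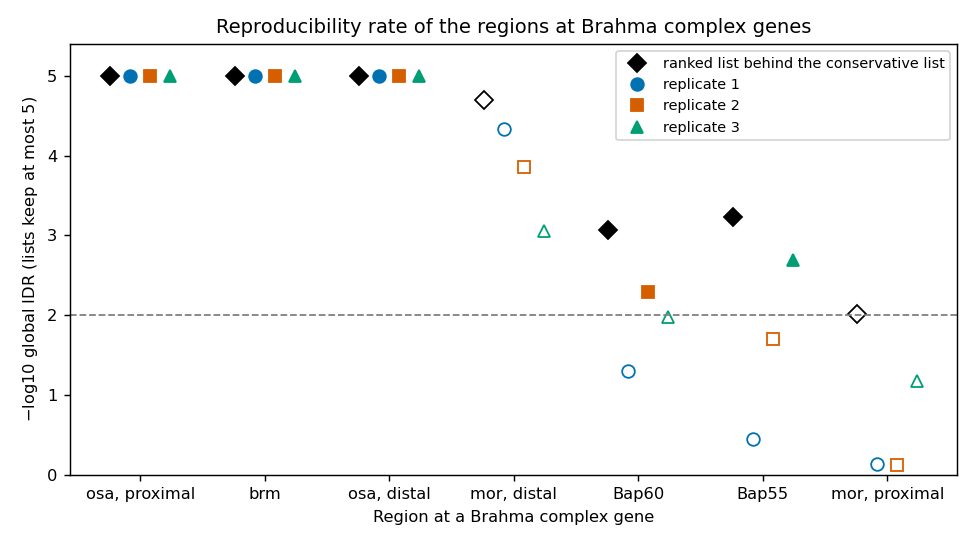
IDR of the same 7 regions as its −log10 value, which the lists keep to at most 5, with the limit of 0.01 as a dashed line at 2. Markers are as in the plot of rank positions: the osa and brm regions sit at 5 in all 4 lists, the distal mor region is above the line in all 4, and Bap60 and Bap55 are above it in the list behind the conservative one and in 1 replicate each.

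The other core genes had no peak in any thresholded list, and no region that passed in the ranked list behind the conservative list. In the other ranked lists the strongest region at each, where there was one, did not pass. Snr1, the homologue of yeast SNF5, lies on chr3R:5470926-5472754, plus strand. Its strongest ranked region had its summit at 5474639, downstream of the gene, with a signal of 67.6 (rank 4908 of 63709) and an IDR of 0.0888. In the ranked lists behind those of 3219, 3247 and 3534 peaks the IDR of this region was 0.103, 0.021 and 0.54. In replicates 1, 2 and 3 the strongest region at Snr1 had signals of 22.0, 21.2 and 33.9, with IDRs of 0.728, 0.733 and 0.541. Bap111, also named dalao, encodes a subunit with an HMG box and lies on chrX:9149309-9151976, plus strand. The ranked list behind the conservative list held 1 region there, with a signal of 28.2 (rank 33558) and an IDR of 0.867. Its summit was in the 3′ UTR of His3.3B. Those behind the lists of 3247 and 3534 peaks held 5 and 3 regions at Bap111. The strongest of these, in a coding exon of Bap111, had a signal of 49.1 and IDRs of 0.42 and 0.519. The replicates had 6, 0 and 2 ranked regions at Bap111, and the strongest in replicate 1 had a signal of 26.6 and an IDR of 0.105.

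None of the PBAP signature genes had a peak in any thresholded list, or a passing region in the ranked list behind the conservative list. In the other ranked lists the strongest region at each, where there was one, did not pass. At polybromo, which encodes a subunit with several bromodomains and lies on chr3R:24799967-24805259, minus strand, the ranked list behind the conservative list held 0 regions. Those behind the lists of 3247 and 3534 peaks held a region 85 bp from the polybromo TSS, with a signal of 57.6 and IDRs of 0.604 and 0.527. Replicate 1 had a region 85 bp from the polybromo TSS, with a signal of 29.7 (rank 3547 of 49504) and an IDR of 0.0755, replicate 2 had 0 regions, and the strongest in replicate 3 had a signal of 17.4 and an IDR of 0.68. At Bap170, an ARID-domain subunit on chr2R:6636512-6642358, plus strand, the strongest region had a signal of 46.7 (rank 11483) and an IDR of 0.308, with its summit in a coding exon. Its IDR was 0.695, 0.699 and 0.738 in the ranked lists behind those of 3219, 3247 and 3534 peaks. The strongest region at Bap170 in replicates 1, 2 and 3 had IDRs of 0.527, 0.529 and 0.664. At e(y)3, which encodes a subunit that also works as a transcriptional coactivator and lies on chrX:19626548-19638369, minus strand, the strongest in the ranked list behind the conservative list had a signal of 38.5 (rank 18799) and an IDR of 0.867. The ranked lists behind those of 3219 and 3534 peaks held a stronger one, 355 bp upstream of the e(y)3 TSS, with a signal of 40.9 and IDRs of 0.209 and 0.738. The strongest region at e(y)3 in replicates 1, 2 and 3 had IDRs of 0.572, 0.602 and 0.307. These values do not show that the protein is absent from the genes, since a region can be ranked or not according to depth, and read depth was not used here.

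All ranked regions within 2 kb of the members were then laid out along the genes. The ranked list behind the conservative list held 67 of them, of which 5 were in the conservative list, 2 passed the IDR without being in it, and 60 did not pass. At brm the peak had a signal of 802, against 66.8 for the strongest region that did not pass. At osa the peaks had signals of 923 and 592, against 3.62 to 62.0 for the 31 regions that did not pass. At mor the strongest of 6 that did not pass had a signal of 60.2, and at Bap55 the only one had 50.3. Over the 8 genes with such regions, the strongest one that did not pass had a signal between 28.2 and 67.6, at genes with a peak and at genes without one. In this list the members had a median of 0.331 ranked regions per kb of gene and flank, against 0.501 over all protein-coding genes. In the replicates the medians were 0.602, 0.365 and 0.393 for the members, against 0.473, 0.392 and 0.390 for all protein-coding genes, so the members lay above and below the other genes in turn.

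**Figure D4:**
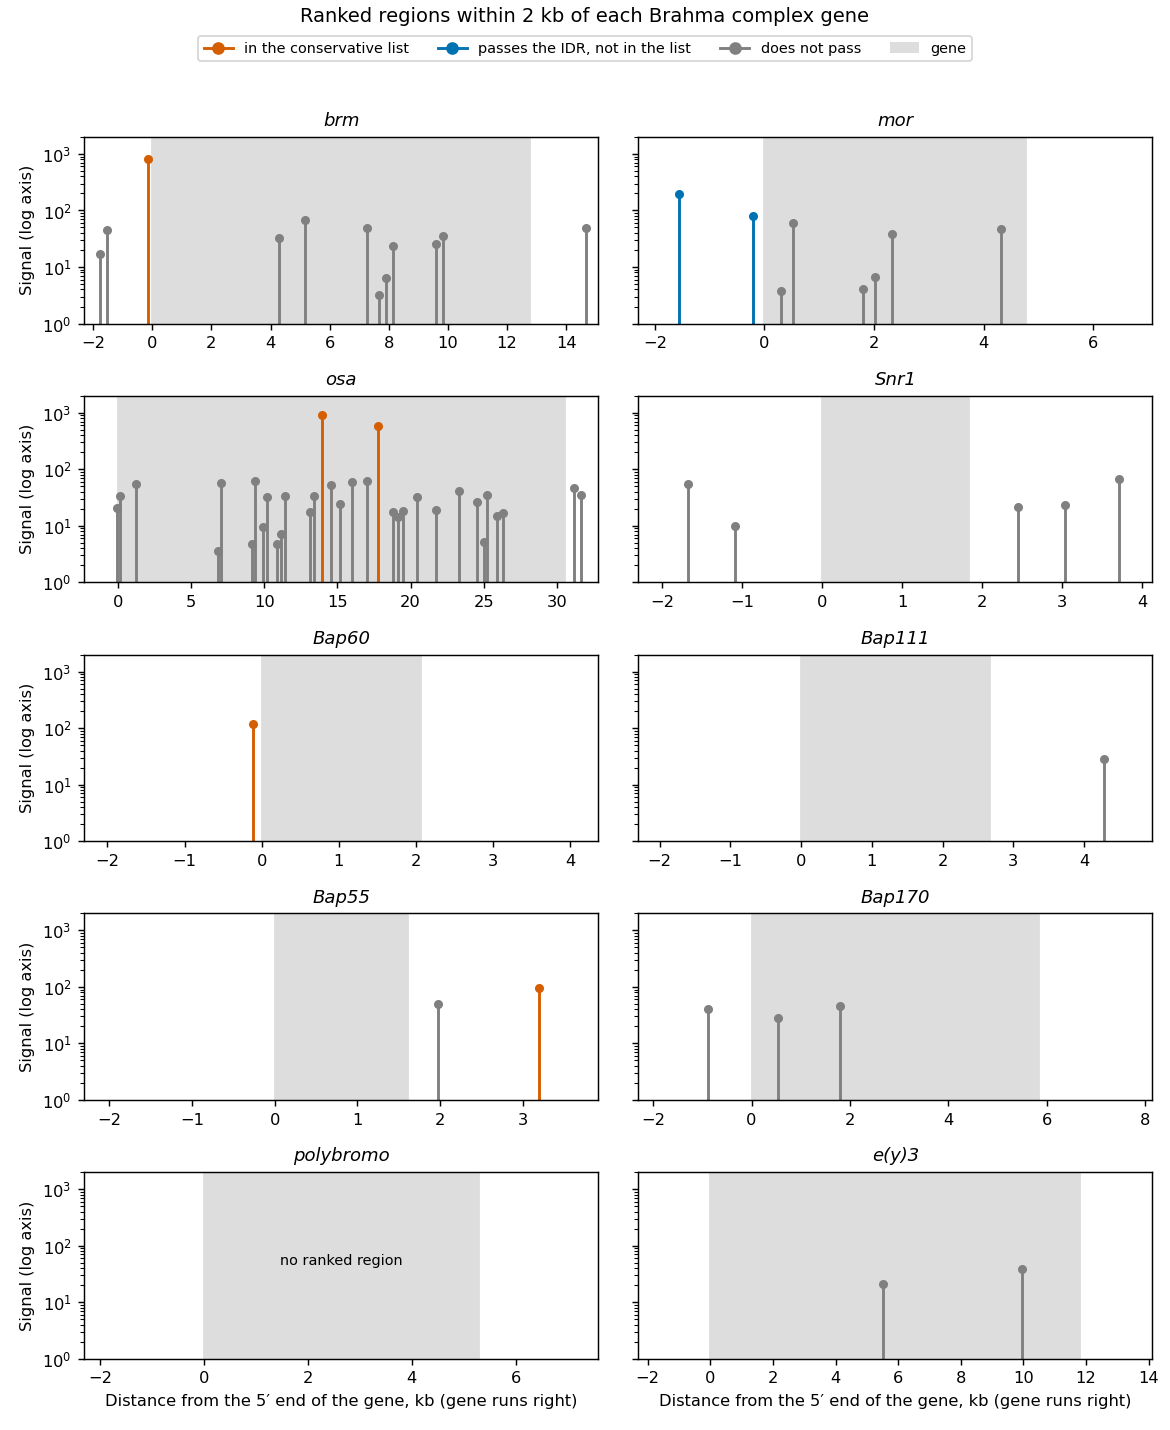
Signal (log axis) of every ranked region within 2 kb of the 10 Brahma complex genes, in the ranked list behind the conservative list, by distance in kb from the 5′ end of the gene (grey band: the gene, running to the right). Orange stems are regions in the conservative list, blue stems pass the IDR without being in it and grey stems do not pass: brm has 1 tall stem just before the gene, osa has 2 inside it, and polybromo has no region.

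Distances to the nearest conservative peak at any range showed how far the remaining genes were from one. The nearest summit to mor was 2.78 kb beyond the gene, in the 5′ UTR of CG32856, with a signal of 164 (rank 1320). The nearest to polybromo was 5.81 kb away, in an intron of lili, and the nearest to Bap111 was 7.89 kb away. For Snr1 the distance was 12.7 kb, for Bap170 it was 20.7 kb and for e(y)3 it was 22.4 kb. The one nearest to Bap170 lay in an intron of Adf1, which encodes a transcription factor, and was strong (signal 1070, rank 29).

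The nearest start site was often that of a neighbour, at the members as over all genes. In 4 of the 5 conservative peaks the nearest protein-coding TSS belonged to another gene: Arl1 at brm, CG12096 at Bap60, Mtap at Bap55 and CG31249 at the distal osa peak. Over all protein-coding genes this held for 56.3% of the 6793 pairs of a conservative peak and a gene within 2 kb of it. With 5 peaks, the members cannot be set apart from that share. Both mor regions were likewise nearer to Hel89B.

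The sequence under the members' summits differed in base composition. In the 101 bp around the summit the GC content was 14.9% at brm, and 17 of the 3502 conservative peaks (0.485%) had this content or less. It was 20.8% at the distal osa peak and 19.8% at Bap55, which 6.80% and 4.48% of conservative peaks reached or fell below. At the proximal osa peak and at Bap60 it was 32.7%, and at both mor regions 34.7%, near the median of 31.7% over all conservative peaks. Over 201 bp the GC content was 31.8% at brm, whose window holds a run of 22 A or T bases, so the low value there lay at the centre. It stayed low at Bap55, at 19.4%, which 4 of the 3502 conservative peaks (0.114%) reached or fell below, and at the distal osa peak, at 26.4% (7.80%), against a median of 34.8% over all conservative peaks.

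The same brm window holds an inverted repeat, found after the sequence had been read. The arm gcgttcagcac, at chr3L:15982937-15982947, returns as its reverse complement gtgctgaacgc at chr3L:15983077-15983087, with 129 bp between the arms and the summit inside that spacer. An inverted repeat with arms of at least 11 bp was present in 98 of the 3502 conservative windows of 201 bp (2.80%), whose median longest arm was 7 bp. The longest arms were 8 bp in both osa windows, 7 bp in the proximal mor window and 6 bp in the distal one. They were also 6 bp in the 201 bp around the Bap60 summit, and the value at Bap55 is not given here.

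The 8 motifs were the DRE TATCGATA, the CTCF core AGATGGCGC or AGGTGGCGC, the GAGA element GAGAG, the word ACAGTG, the M1BP core GTCACAC, the TATA box TATAAA, the Pho core GCCAT and the Zelda site CAGGTAG. All were searched on both strands as exact letters, and no 2 of the matches printed overlap. Within 100 bp of the summit ACAGTG matched at brm, 62 bp from the summit, and at both mor regions, 56 bp from the distal and 57 bp from the proximal summit. It matched in 21.1% of all conservative windows of that length. TATAAA matched at brm, at both osa peaks (3 matches at the distal one) and at Bap55, and in 36.4% of all windows. GCCAT matched at the proximal osa peak and the proximal mor region, and in 25.8% of all windows. GAGAG matched 2 times at the distal osa peak, and in 22.2% of all windows. The DRE, the CTCF core, the M1BP core and the Zelda site matched at none of the 7 regions, and in 3.00%, 1.57%, 2.80% and 0.828% of all windows. The 95 bp Bap60 gap held no match to any of the 8. These matches describe letters and do not show that a factor binds there.

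Genes that work beside the Brahma complex were counted by the same rules, from lists of named remodeller subunits and trithorax group genes. Of 33 genes of other remodellers, 14 had a conservative peak within 2 kb (42.4%). A peak was present in all 3 replicates at 11 (33.3%), and a summit lay within 500 bp of a TSS at 5 (15.2%). The 3 with the highest-ranked peak were Caf1-55, a histone-binding subunit of several complexes (signal 1517, rank 11), simj, a subunit of the NuRD complex (439, rank 239), and Mi-2, the ATPase of that complex (419, rank 261). Of 10 other trithorax group genes, 7 had a conservative peak (70.0%), 6 had one in all 3 replicates and 2 had a summit within 500 bp of a TSS. Their 3 highest were at ash1, a histone methyltransferase gene (1981, rank 3), Trl, which encodes the GAGA factor (1042, rank 31), and trx, which encodes another histone methyltransferase (247, rank 697). The Caf1-55 and ash1 peaks lay 117 and 88 bp from the TSSs of Art3 and CG14100, and 3949 and 8143 bp from those of the genes they were counted for. The shares of all protein-coding genes under these 3 rules were 27.8%, 15.1% and 14.3%, in that order. Beside them, the counts above are a description of small lists whose genes differ in length.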

How the data were processed

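ChIP-seq peak lists were used from 3 biological replicates of 1 group, as replicates 1 to 3 of the labels. The authors made, per the deposited descriptions, a ranked and a thresholded list from each replicate and 4 such pairs from all 3 replicates, on dm6. No source used here names the aligner or the peak caller. Each deposited region has a signal, a score that falls with the IDR (at least 830 in thresholded lists) and, in ranked lists, the global IDR as a −log10 value kept to at most 5. In ranked lists the authors also deposited 2 more signals per region, one for each list of the pair compared. For the conservative list 63.4% of the first equalled a record of replicate 2 and 66.2% of the second a record of replicate 3, and 0 a record of replicate 1. For the list of 3219 peaks the shares were 63.0% for replicate 1 and 62.8% for replicate 2. For the list of 3247 they were 64.0% for replicate 1 and 66.8% for replicate 3. For the list of 3534, 0 equalled a record of any replicate.

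Summits were taken as the start plus the deposited offset and joined to Ensembl gene models (BDGP6.54, release 115) and to RefSeq sequence, in Python 3.11.15 with pandas 2.3.3, numpy 2.4.6 and matplotlib 3.10.9. No peak ended past the end of a chromosome arm. A summit counted for every gene it lay in or within 2 kb of. Ranks run from the strongest signal down within a list. The joining step was tested on simulated data. The members, lists and motifs were chosen with earlier results of these data known, and the inverted repeat was sought after the sequence had been seen. All 10 members are named, with each thresholded peak and the strongest region that did not pass, and of other lists the 3 genes with the highest-ranked peak. Alternatives were the distance, the list, the IDR limit, signal, overlap and each replicate left out. No control library or read depth was used.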

Additional observations from a re-analysis of the deposited data

Results flagged for a closer look

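A pair of regions at mor stood out in the ranked lists, which the counts of peaks do not use. The distal mor region had a signal of 194 in the ranked list behind the conservative list and passed the IDR there and in each of the 3 replicates, yet no thresholded list held it. The proximal mor region had a signal of 79.6 and passed the IDR in that ranked list, with an IDR of 0.00956, but did not in the ranked list behind the 3219 peaks, with 0.0176, nor in any replicate, and no thresholded list held it either. No control library was analysed here, and the background of these regions was not tested.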

How the results depend on the processing

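With summits counted only inside the gene, 1 gene (osa) kept a conservative peak in place of 4, the peaks numbered 2 in place of 5, and 1 gene in place of 2 had a peak in all 3 replicates, beside 9.67% and 5.17% of all protein-coding genes. With only the stronger 50% of each list, 2 genes had a conservative peak, with 3 peaks, beside 17.6% of all protein-coding genes. Asking that a conservative peak overlap a peak in both other replicates, with each replicate left out in turn, gave 2 genes with 3 peaks each time. The share of all protein-coding genes was 15.8% to 17.3%. A summit within 500 bp of a TSS was then left at 1 gene, brm, beside 7.47% to 8.5% of all protein-coding genes. The conservative list itself was not remade, and the main count asks for no overlap, so these counts do not show the effect of leaving out a replicate. Distances of 500 bp or 5 kb from the gene gave 3 and 5 genes with a conservative peak, with mor among the 5, beside 20.3% and 40.3% of all protein-coding genes. The other across-replicate lists, an IDR limit of 0.001 and any part of the peak in place of the summit gave 4 genes each. Of all protein-coding genes, 21.0% had such a peak at the stricter limit and 25.9% to 28.5% under the others. Other distances from a TSS gave 2 genes, brm and Bap60, beside 9.97% to 16.9% of all protein-coding genes. Counting all ranked regions that pass the IDR was an alternative chosen after seeing the data. It gave 5 genes with 7 regions, beside 28.2% of all protein-coding genes, and 3 genes in all 3 replicates, beside 15.3%. No paired analysis was possible because there was 1 group. Read depth, which limits how weak a region can be ranked, was not used here.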
